A study of Homo sapiens with 21 samples.

Results

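The 5 circular RNAs (circRNAs) hsa_circ_15688, hsa_circ_6034, hsa_circ_12368, hsa_circ_4462 and hsa_circ_18854 are 5 of the 124082 in the table. They were chosen by their read counts in osimertinib-resistant NCI-H1975 cells, which were higher than those in NCI-H1975 cells. The counts described here made that choice, so the rise in the resistant cells is given as a description and carries no test. The tests below concern gefitinib resistance, FASN transfection and the PC-9 line against NL20, which the choice did not use. The numbers in the names belong to this table and are not database accessions. The table pairs them with no gene, position or sequence, so no host gene, function or sequence is given for any of the 5.

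A circRNA forms when the splicing machinery joins the end of an exon back to the start of the same or an upstream exon, which closes the transcript into a ring. Without free ends, circRNAs resist the exonucleases that degrade linear RNA and can build up in cells, and which circRNAs a cell holds depends strongly on its type. Osimertinib and gefitinib inhibit the kinase of EGFR, a growth factor receptor that is mutated in many lung adenocarcinomas, and tumours treated with either drug commonly become resistant.

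Circular RNA was sequenced in 21 libraries, 3 for each of 7 groups. NCI-H1975, a lung cancer line labelled EGFR mutant, was sequenced as osimertinib-resistant cells treated with 1 µM of the drug, as FASN-transfected and as pCMV6-transfected cells treated with 50 µg/ml of G418, and as cells without a resistance or plasmid code, called NCI-H1975 cells below. pCMV6 is an expression plasmid and FASN is fatty acid synthase, which makes palmitate. PC-9, another lung cancer line labelled EGFR mutant, was sequenced as gefitinib-resistant cells treated with 1 µM gefitinib and as cells without a resistance code, called PC-9 cells. NL20, an immortalized bronchial epithelial line that does not form tumours, was the normal control. All cultures were labelled as passages between 20 and 31. The labels do not say whether the resistant or transfected cells were 1 clone or a mixed population, or whether libraries of 1 group were separate cultures. The p-values thus set differences between groups against the spread between libraries, which may be technical.

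Library totals lay between 95808 and 203079 reads. A filter on low counts kept 9175 circRNAs (7.39%) for testing, and the 5 were among them, as they also were when the filter was applied without the osimertinib-resistant libraries. Levels are counts per M (mega) reads (CPM) of the scaled reads in the circRNAs tested. Osimertinib-resistant replicate 2 stood apart from the other 2 libraries of its group. It held 15244 distinct circRNAs, against 23973 in replicate 1 and 21841 in replicate 3. Such counts also depend on the total, which was 110456 reads in replicate 2, 136662 in replicate 1 and 143161 in replicate 3. FASN replicate 1, with 106020 reads, held 21347 distinct circRNAs. The circRNA with the most reads over all 21 libraries took 11.4% of the reads in replicate 2, against 6.98% and 7.66%. Ratios to NCI-H1975 cells are given with and without osimertinib-resistant replicate 2, and other values where leaving it out changed which groups overlapped. In libraries of bulk RNA, more cells that hold a circRNA and more copies per cell cannot be told apart.

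Together the 5 took 0.281% ± 0.037 of the reads in osimertinib-resistant cells (mean ± SD, n = 3), 0.063% ± 0.0065 with FASN, 0.0685% ± 0.0268 with pCMV6 and 0.0472% ± 0.0093 in NCI-H1975 cells. The share was 0.104% ± 0.0089 in gefitinib-resistant and 0.0892% ± 0.0152 in other PC-9 cells, and 0.154% ± 0.019 in NL20. The osimertinib-resistant libraries held 0.312%, 0.24% and 0.29%, the lowest of them in replicate 2, and each lay above every library of the other 6 groups, of which NL20 was the highest. The members differed in their levels in the other groups, and they fell into 2 patterns by their level in NL20. hsa_circ_15688, hsa_circ_4462 and hsa_circ_18854 were abundant in NL20 and are called NL20-rich below, whereas NL20 held less of hsa_circ_6034 and hsa_circ_12368 than any other group.

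**Figure D1:**
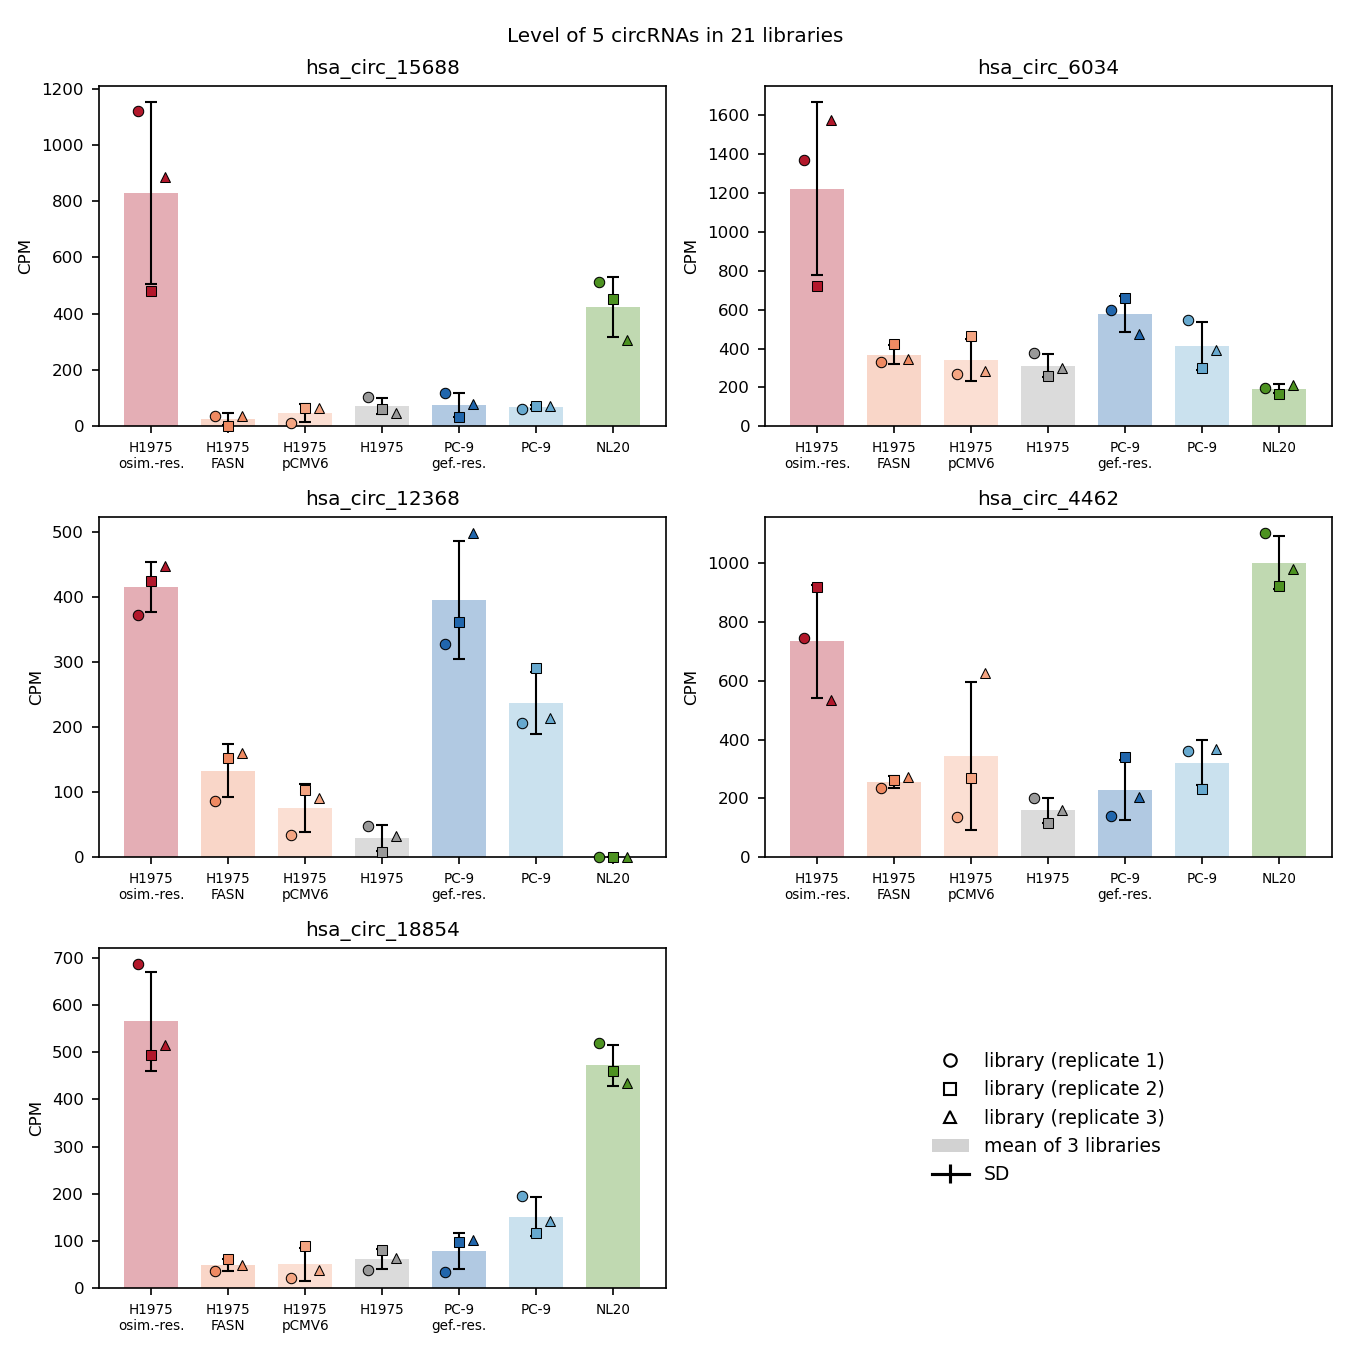
Level of each circRNA in the 21 libraries, in CPM on a linear axis that starts at 0 and differs between panels. Bars are means of 3 libraries with SD, and symbols are single libraries. Each circRNA is higher in the 3 osimertinib-resistant libraries than in the 3 NCI-H1975 libraries, whereas NL20 ranges from no read of hsa_circ_12368 to 1001 CPM of hsa_circ_4462.

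In the contrast that chose them, the circRNAs stood between 3.94-fold and 14.0-fold higher in osimertinib-resistant than in NCI-H1975 cells. The median log2 change of the 5 was 3.17, beside -0.05 for the 9175 circRNAs tested. Every osimertinib-resistant library lay above every NCI-H1975 library for 5 of 5, as it did for 7.27% of the circRNAs tested. They were among the 125 circRNAs (1.36% of those tested) called higher here by edgeR, at ranks 2 to 6 in the order of p, which describes the choice and is no test of the rise. Just outside were the circRNA of rank 1, with 265 reads in osimertinib-resistant and 0 in NCI-H1975 cells, and that of rank 7, with 354 and 149 reads and a log2 change of 1.46. Since this contrast made the choice, nothing is read from these values.

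hsa_circ_15688 had 111, 42 and 93 reads in the osimertinib-resistant libraries and 11, 7 and 6 in the NCI-H1975 libraries. The level was 829 ± 322 CPM in osimertinib-resistant cells, against 72.1 ± 29.8 CPM in NCI-H1975 cells (SD, n = 3), which is 11.5-fold. By mean level it was the circRNA of rank 129 in osimertinib-resistant cells and of rank 2995 in NCI-H1975 cells. In FASN cells it had 3, 0 and 3 reads and in pCMV6 cells 1, 5 and 5, and every FASN library lay below every NCI-H1975 library, as for 5.53% of the circRNAs tested, while pCMV6 overlapped. It stood 33.6-fold higher in osimertinib-resistant than in FASN cells, or 22.4-fold without FASN replicate 2, which had no read, and 17.7-fold higher than in pCMV6 cells.

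hsa_circ_18854 had 68, 43 and 54 reads in the osimertinib-resistant libraries and 4, 9 and 8 in the NCI-H1975 libraries. Its level was 565 ± 105 CPM in osimertinib-resistant cells and 61.1 ± 21.1 CPM in NCI-H1975 cells, 9.25-fold apart. The FASN libraries had 3, 7 and 4 reads and the pCMV6 libraries 2, 7 and 3. These transfected groups overlapped with NCI-H1975 cells, at 49.8 ± 13.0 CPM in FASN and 50.6 ± 35.2 CPM in pCMV6 cells. The ratio of osimertinib-resistant to pCMV6 cells was 11.2-fold. It was 8.74-fold without pCMV6 replicate 1, 18.3-fold without replicate 2 and 10.0-fold without replicate 3.

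hsa_circ_4462 had 74, 80 and 56 reads in the osimertinib-resistant libraries and 21, 13 and 20 in the NCI-H1975 libraries. Its level was 733 ± 193 CPM in osimertinib-resistant cells and 159.6 ± 42.9 CPM in NCI-H1975 cells, 4.59-fold apart. It was the member whose rise was least set off from the transfected cells. The FASN libraries had 19, 29 and 22 reads, 256 ± 19 CPM, and lay above every NCI-H1975 library, as for 4.19% of the circRNAs tested. The pCMV6 libraries had 12, 21 and 48 reads, and replicate 3 alone, at 624 CPM, reached into the range of the osimertinib-resistant libraries, of which the lowest stood at 534 CPM. Without pCMV6 replicate 3 the osimertinib-resistant libraries lay above the pCMV6 libraries, and the ratio was 3.61 in place of 2.13. They also lay above without osimertinib-resistant replicate 3, the library at 534 CPM, at a ratio of 2.42.

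hsa_circ_12368 had 37, 37 and 47 reads in the osimertinib-resistant libraries and 5, 1 and 4 in the NCI-H1975 libraries. Its level was 415 ± 38 CPM in osimertinib-resistant cells and 29.7 ± 19.7 CPM in NCI-H1975 cells, and the ratio of 14.0 was the highest of the 5. The transfected cells lay between, with 7, 17 and 13 reads and 133 ± 41 CPM in FASN cells and with 3, 8 and 7 reads and 76.0 ± 36.9 CPM in pCMV6 cells. Every FASN library lay above every NCI-H1975 library, by 4.48-fold on average, as for 4.19% of the circRNAs tested, and pCMV6 overlapped with both. The osimertinib-resistant cells stood 3.12-fold above FASN and 5.46-fold above pCMV6 cells.

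hsa_circ_6034 was the most abundant member in every cancer-line group apart from pCMV6 cells, where hsa_circ_4462 stood at 344 ± 252 CPM beside its 341 ± 107 CPM. It had 136, 63 and 165 reads in the osimertinib-resistant libraries and 39, 29 and 37 in the NCI-H1975 libraries. The level was 1222.5 ± 444 CPM in osimertinib-resistant cells and 310.5 ± 59.0 CPM in NCI-H1975 cells, and the ratio of 3.94 was the lowest of the 5. Its rank by mean level was 67 in osimertinib-resistant and 526 in NCI-H1975 cells. FASN libraries had 27, 47 and 28 reads and pCMV6 libraries 24, 36 and 22. Their levels overlapped with those of NCI-H1975 cells and with each other, and the osimertinib-resistant cells stood 3.33-fold above FASN and 3.59-fold above pCMV6 cells.

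Set against the 9 libraries of the other NCI-H1975 groups at once, every osimertinib-resistant library was higher for 4 of the 5, with hsa_circ_4462 as the exception, and 2.3% of the circRNAs tested met the same condition. The condition reuses the osimertinib-resistant and NCI-H1975 libraries that made the choice, so nothing is read from these shares. The osimertinib-resistant libraries did not carry the 5 in equal measure. Replicate 2 held 0.481 times the mean level of replicates 1 and 3 for hsa_circ_15688 and 0.491 times for hsa_circ_6034. For hsa_circ_18854 it held 0.822 times that mean and for hsa_circ_12368 1.03 times, and for hsa_circ_4462 it was the highest library, at 1.43 times. The chi-square of the counts around a common level, per degree of freedom, was 11.3 for hsa_circ_15688 and 14.6 for hsa_circ_6034 within the osimertinib-resistant group, 4.95 for hsa_circ_4462, 1.90 for hsa_circ_18854 and 0.356 for hsa_circ_12368, where counting error alone gives about 1. Without replicate 2 the ratios to NCI-H1975 cells were 13.9 for hsa_circ_15688, 4.74 for hsa_circ_6034, 13.8 for hsa_circ_12368, 4.01 for hsa_circ_4462 and 9.83 for hsa_circ_18854. The rise of each was thus present without that library, and its part in the spread was not tested. Ratios of the osimertinib-resistant cells to the FASN, pCMV6, gefitinib-resistant PC-9, PC-9 and NL20 groups moved by at most 1.21 times without it, where both groups had reads.

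**Figure D2:**
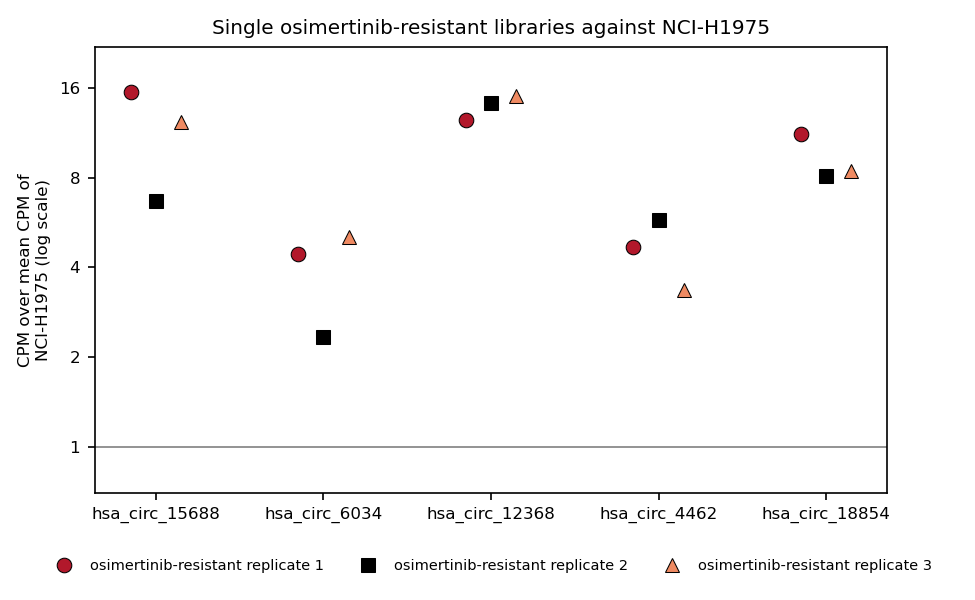
CPM of each circRNA in single osimertinib-resistant libraries, divided by its mean CPM in the 3 NCI-H1975 libraries, on a log axis where the grey line marks equality. Replicate 2 is well below the others for hsa_circ_15688 and hsa_circ_6034, slightly below them for hsa_circ_18854 and the highest for hsa_circ_4462.

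PC-9 and NL20 cells were compared to ask how the circRNAs differ between a cancer line and the normal control, in libraries the choice had not used. The 5 split by direction: 3 were lower and 2 were higher in PC-9 than in NL20 in edgeR's quasi-likelihood test, at adjusted p-values under 0.05. The 2 patterns above were drawn from the levels in NL20, so the match of this split to them is no separate result. Over the circRNAs tested, 7.75% were called lower and 9.02% higher, 16.8% in all. hsa_circ_15688 had 6, 10 and 6 reads in PC-9 libraries and 68, 65 and 36 in NL20 libraries, or 68.8 ± 6.0 CPM in PC-9 and 424 ± 106 CPM in NL20 (log2 change -2.60 ± 0.45 SE, edgeR adjusted p = 2.49e-07). hsa_circ_4462 had 35, 32 and 31 reads in PC-9 and 146, 132 and 115 in NL20, or 321 ± 76 CPM in PC-9 and 1001 ± 91 CPM in NL20 (log2 change -1.66 ± 0.29 SE, edgeR adjusted p = 5.02e-07). hsa_circ_18854 had 19, 16 and 12 reads in PC-9 and 69, 66 and 51 in NL20, or 152 ± 40 CPM in PC-9 and 472 ± 44 CPM in NL20 (log2 change -1.64 ± 0.42 SE, edgeR adjusted p = 0.00117). For each of these 3, every PC-9 library lay below every NL20 library, as it did for 19% of the circRNAs tested.

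Every PC-9 library lay above every NL20 library for the 2 circRNAs called higher, as for 16.9% of the circRNAs tested. hsa_circ_12368 had 20, 40 and 18 reads in PC-9 libraries, 237 ± 47 CPM, and 0 in each of the 3 NL20 libraries. At a floor of 3 reads over the NL20 group, which is 7.63 CPM, it was at least 31.1-fold higher in PC-9 (edgeR adjusted p = 2.72e-14). The floor covers counting error only. hsa_circ_6034 was read in NL20 at 26, 24 and 25 reads and in PC-9 at 53, 41 and 33 reads, which gave 413 ± 125 CPM in PC-9 and 192 ± 23 CPM in NL20. Its log2 change of 1.09 ± 0.31 SE passed the edgeR test at an adjusted p of 0.0042. That call was lost without NL20 replicate 2 (log2 change 0.93, edgeR adjusted p = 0.0678), without PC-9 replicate 1 (log2 change 0.81, edgeR adjusted p = 0.117) and without the filter on low counts (log2 change 1.00, edgeR adjusted p = 0.394). The filter, set anew for each fit, kept 11441 circRNAs without NL20 replicate 2 and 11477 without PC-9 replicate 1, so the adjustment differed too. Over its 14 alternatives the adjusted p ran between 0.0016 and 0.394, whereas the other 4 kept their calls in all 14.

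The level of the osimertinib-resistant cells relative to NL20 differed along the same split and is given without a test. The split was drawn from the levels in NL20, which also enter these ratios, so following it is no separate result. The osimertinib-resistant and NL20 libraries overlapped for hsa_circ_15688, at 829 ± 322 CPM and 424 ± 106 CPM, and for hsa_circ_18854, at 565 ± 105 CPM and 472 ± 44 CPM. For hsa_circ_15688 the overlap rested on 1 library of each group, osimertinib-resistant replicate 2 at 482 CPM and NL20 replicate 1 at 513 CPM. Every osimertinib-resistant library lay above every NL20 library without the one or the other, by 2.36-fold on average without osimertinib-resistant replicate 2 and by 2.18-fold without NL20 replicate 1, in place of 1.95-fold. For hsa_circ_18854 the overlap ended without NL20 replicate 1, at a ratio of 1.26 in place of 1.20. For hsa_circ_4462 every osimertinib-resistant library lay below every NL20 library, but by little, with the highest osimertinib-resistant library at 918 CPM and the lowest NL20 library at 922 CPM, and 17.7% of the circRNAs tested were separated in that direction. In NCI-H1975 cells these 3 stood below NL20, at 0.17, 0.129 and 0.16 times the NL20 mean for hsa_circ_15688, hsa_circ_18854 and hsa_circ_4462. Every library of the FASN, pCMV6 and NCI-H1975 groups lay below every NL20 library for the 3, as was the case for 9.86% of the circRNAs tested. hsa_circ_6034 stood 6.36-fold and hsa_circ_12368 at least 54.4-fold higher in osimertinib-resistant cells than in NL20, with every library higher, as for 12.9% of the circRNAs tested. hsa_circ_12368 overlapped instead with gefitinib-resistant PC-9, at 415 ± 38 CPM in osimertinib-resistant NCI-H1975 and 396 ± 90 CPM in gefitinib-resistant PC-9, an overlap that ended without gefitinib-resistant replicate 3.

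The gefitinib-resistant PC-9 libraries were set against those of PC-9 cells to ask whether the circRNAs raised in one resistant line also changed in the other. None of the 5 passed edgeR's quasi-likelihood test or the Wald test of DESeq2, while edgeR called 1.35% of the circRNAs tested. At an unadjusted p under 0.05 there were 0 of 5, beside 11.1% of the circRNAs tested. The median log2 change was 0.13 for the 5, beside -0.003 for all circRNAs tested, and the signs were mixed. hsa_circ_12368 had 28, 33 and 44 reads in gefitinib-resistant and 20, 40 and 18 in PC-9 libraries. Its level was 396 ± 90 CPM in gefitinib-resistant cells and 237 ± 47 CPM in PC-9 cells (log2 change 0.72 ± 0.43 SE, edgeR adjusted p = 0.555), and every gefitinib-resistant library lay above every PC-9 library, as for 7.64% of the circRNAs tested.

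hsa_circ_18854 lay on the other side, with 3, 9 and 9 reads in gefitinib-resistant and 19, 16 and 12 in PC-9 libraries. Its level was 78.6 ± 37.7 CPM in gefitinib-resistant cells and 152 ± 40 CPM in PC-9 cells (log2 change -0.92 ± 0.50 SE, edgeR adjusted p = 0.501). Every gefitinib-resistant library was below every PC-9 library, as for 9.22% of the circRNAs tested. For the remaining 3 the groups overlapped. hsa_circ_6034 had 51, 60 and 42 reads in gefitinib-resistant and 53, 41 and 33 in PC-9 libraries, with a log2 change of 0.49 ± 0.29 SE (edgeR adjusted p = 0.539). hsa_circ_4462 had 12, 31 and 18 reads in gefitinib-resistant and 35, 32 and 31 in PC-9 libraries, with a log2 change of -0.46 ± 0.33 SE (edgeR adjusted p = 0.667). hsa_circ_15688 had 10, 3 and 7 reads in gefitinib-resistant and 6, 10 and 6 in PC-9 libraries, with a log2 change of 0.13 ± 0.55 SE (edgeR adjusted p = 0.988). That estimate took the other sign without gefitinib-resistant replicate 1, at -0.32.

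The effect of FASN was measured against the plasmid control, pCMV6. No member passed edgeR's quasi-likelihood test or the DESeq2 test, while edgeR called 0.316% of the circRNAs tested. At an unadjusted p under 0.05 there were 0 of 5, beside 7.95% of the circRNAs tested. The FASN and pCMV6 libraries overlapped for each of the 5. Over the circRNAs tested, 6.43% had every FASN library higher and 5.57% every FASN library lower. The log2 change was 0.83 ± 0.55 SE for hsa_circ_12368 (edgeR adjusted p = 0.776) and -0.99 ± 0.76 SE for hsa_circ_15688 (edgeR adjusted p = 0.835), which had 6 reads in FASN and 11 in pCMV6 cells and moved to -0.27 without FASN replicate 2. For hsa_circ_4462 it was -0.41 ± 0.33 SE (edgeR adjusted p = 0.853), and 0.44 without pCMV6 replicate 3, the library with 48 reads. hsa_circ_6034 had a log2 change of 0.12 ± 0.31 SE (edgeR adjusted p = 0.991). That of hsa_circ_18854 was 0.03 ± 0.64 SE (edgeR adjusted p = 1), and its sign turned without scaling factors and when FASN replicate 2, pCMV6 replicate 1 or pCMV6 replicate 3 was left out.

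**Figure D3:**
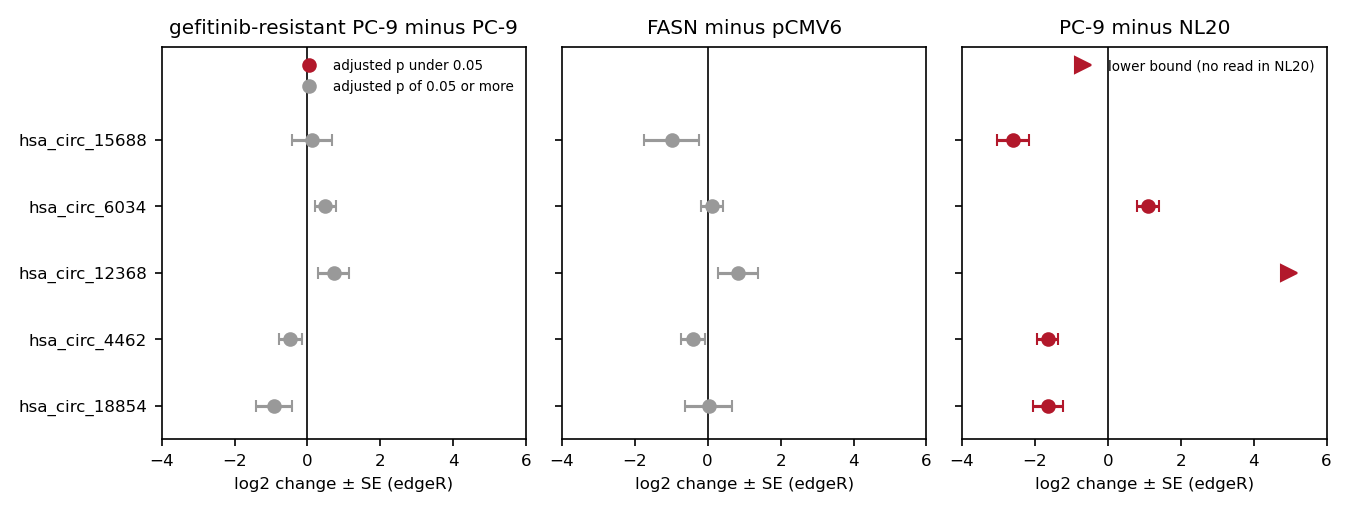
Log2 change with its SE for the 5 circRNAs in the comparisons that the choice did not use, from edgeR's quasi-likelihood model of 21 libraries, with the circRNAs called in red and the others in grey. For hsa_circ_12368 in PC-9 minus NL20 the triangle marks the lower bound that 0 NL20 reads allow. The calls are all in PC-9 minus NL20, with 3 lower and 2 higher.

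In the order of mean levels, the osimertinib-resistant group came first for 4 of the 5, and second after NL20 for hsa_circ_4462. For hsa_circ_15688 the groups from FASN (24.7 CPM) through pCMV6, PC-9 and NCI-H1975 to gefitinib-resistant PC-9 (76.4 CPM) overlapped neighbour by neighbour, a gap then set off NL20, and NL20 overlapped with the osimertinib-resistant group through 1 library of each. hsa_circ_18854 was lowest in FASN cells, at 49.8 CPM, and overlapped neighbour by neighbour through pCMV6 and NCI-H1975 to gefitinib-resistant PC-9, at 78.6 CPM. PC-9 and NL20 followed, each without overlap with the group before, and NL20 overlapped with the osimertinib-resistant group. hsa_circ_6034 began with NL20 alone, followed by overlapping groups from NCI-H1975 up to gefitinib-resistant PC-9 at 577 ± 93 CPM, and its osimertinib-resistant libraries stood clear of them. For hsa_circ_12368 the order was NL20, NCI-H1975, pCMV6, FASN, PC-9, gefitinib-resistant PC-9 and osimertinib-resistant NCI-H1975. Its neighbours overlapped from NCI-H1975 to FASN and again between the resistant groups. For hsa_circ_4462 each group from NCI-H1975 up to the osimertinib-resistant cells overlapped with its neighbour.

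The correlation of log2 CPM between members across libraries is a description, since libraries of a group share their cells and the lines differ in many circRNAs. Where it includes the NL20 libraries it restates the levels in NL20 by which the patterns were drawn. Over all 21 libraries, Pearson's r was 0.86 between hsa_circ_15688 and hsa_circ_18854, 0.82 between hsa_circ_4462 and hsa_circ_18854 and 0.72 between hsa_circ_15688 and hsa_circ_4462, and it was 0.81 between hsa_circ_6034 and hsa_circ_12368. Pairs across the patterns lay between -0.13 and 0.34. Over the 18 libraries without the osimertinib-resistant group, pairs within the NL20-rich pattern kept r between 0.68 and 0.79 and pairs across the patterns had r between -0.52 and -0.42. When the NL20 libraries were left out as well, r within the NL20-rich pattern was between -0.001 and 0.33 over 15 libraries, a range that overlapped with the 0.16 to 0.43 of pairs across the patterns. The value for hsa_circ_6034 and hsa_circ_12368 was 0.85 over 18 libraries and 0.72 over 15, where PC-9 and NCI-H1975 libraries form separate sets.

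**Figure D4:**
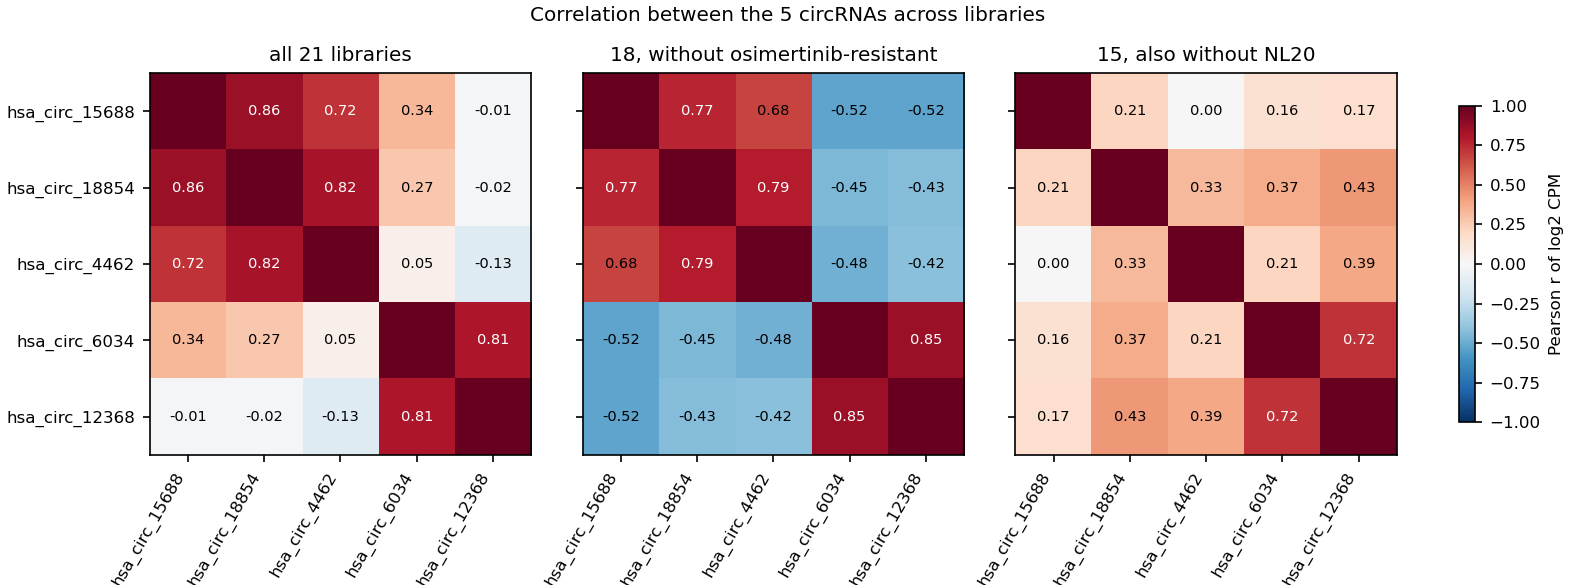
Pearson's r of log2 CPM between the 5 circRNAs over all 21 libraries, over the 18 without the osimertinib-resistant group and over the 15 also without NL20. The NL20-rich members hsa_circ_15688, hsa_circ_18854 and hsa_circ_4462 correlate at 0.68 or more until the NL20 libraries are removed and at 0.33 or less after that, and hsa_circ_6034 with hsa_circ_12368 at 0.72 or more in each panel.

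Among the 9174 other circRNAs tested, the one most like hsa_circ_15688 over the 21 libraries was hsa_circ_4727 (Pearson r = 0.90, Spearman rho = 0.74). It had 2982 CPM in osimertinib-resistant, 1471 in NCI-H1975 and 2111 in NL20 cells, the same order of these groups with smaller ratios. The lower groups were ordered otherwise: FASN cells, the lowest for hsa_circ_15688, stood at 1341 CPM, above PC-9 at 1310 and pCMV6 at 1213 CPM. The one most like hsa_circ_18854 was hsa_circ_15688 itself (r = 0.86, rho = 0.68), and for hsa_circ_4462 it was hsa_circ_9614 (r = 0.84, rho = 0.86), with 39 reads in osimertinib-resistant, 15 in NCI-H1975 and 121 in NL20 cells. For hsa_circ_12368 it was hsa_circ_1946 (r = 0.88, rho = 0.83), which had 264 reads in osimertinib-resistant and 126 in NCI-H1975 cells, 447 in gefitinib-resistant and 400 in other PC-9 cells, and 2 in NL20. For hsa_circ_6034 it was hsa_circ_8752 (r = 0.81, rho = 0.69), at 2208 CPM in osimertinib-resistant, 1223 in NCI-H1975 and 731 in NL20 cells. These likenesses include the osimertinib-resistant libraries that chose the members.

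The circRNAs numbered directly before and after each member were also read, without any assumption that numbers reflect position. Of these 10, 4 passed the filter on low counts. The one after hsa_circ_18854 had 80 reads in osimertinib-resistant and 18 in NCI-H1975 libraries, 16 each in FASN and pCMV6, 15 in gefitinib-resistant and 22 in other PC-9 libraries, and 44 in NL20. Read sums here are not scaled for library totals, which differed between groups. hsa_circ_18854 had 186 reads in NL20 and 165 in osimertinib-resistant libraries, but its mean level was 472 CPM in NL20 and 565 CPM in osimertinib-resistant cells. Those before and after hsa_circ_4462 each had 11 reads in osimertinib-resistant cells, with 6 and 5 in NCI-H1975 and 40 and 31 in NL20. The one after hsa_circ_6034 had 182 reads in osimertinib-resistant and 104 in NCI-H1975 cells and 96 in NL20. The neighbours of hsa_circ_15688 and hsa_circ_12368 did not pass the filter, and they had at most 2 reads in the osimertinib-resistant libraries. The one before hsa_circ_12368 had 17 reads in gefitinib-resistant and 12 in other PC-9 libraries, and 0 in NL20.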

How the data were processed

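A column kit yielded total RNA, from which a sequencing provider purified circular RNA and made the libraries, per the labels' protocols. The submitters' processing notes name the build hg38 and the tools HISAT2 and DESeq2, without version or role. For the circRNA caller and its filters, no name is given in the sources used here. The authors deposited raw counts, whole numbers of reads for each circRNA.

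The analysis used edgeR 4.0.16 under R 4.3.3. The filter was edgeR's filterByExpr (min.count 5, min.total.count 15), scaling was by TMM (trimmed mean of M values), and 1 robust quasi-likelihood model with a mean per group was fitted to all 21 libraries. P-values were adjusted by Benjamini and Hochberg over the circRNAs that each fit tested, and 0.05 was the threshold. In the main fit these were the 9175 circRNAs, which held between 73.6% and 79.3% of a library's reads. The SE is the log2 change divided by the square root of F. CPM and folds are from group means without a prior; log2 CPM for correlations used a prior count of 2. The code was tested on simulated data. Members and tests were chosen with earlier results of these data known. Each member was named, with the most alike tested circRNA by Pearson's r and the numbered neighbours. Circular RNA of known host genes was not analysed here. Alternatives were DESeq2 1.42.0, other scaling, other filters, the compared groups alone, a replicate block and leaving out each library.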

Additional observations from a re-analysis of the deposited data

Results flagged for a closer look

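hsa_circ_18854 lay on opposite sides of the comparison cells in the lines made resistant to an inhibitor. Every osimertinib-resistant NCI-H1975 library lay above every NCI-H1975 library, as for 7.27% of the circRNAs tested, and every gefitinib-resistant PC-9 library lay below every PC-9 library, as for 9.22%. The change in PC-9 (log2 change -0.92) did not pass edgeR's quasi-likelihood test, with an adjusted p of 0.501. The difference between the lines was not tested, since the rise in NCI-H1975 chose the circRNA.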

How the results depend on the processing

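Over all alternatives, 0 of the 5 circRNAs were called for gefitinib resistance in PC-9 and 0 for FASN against pCMV6, and between 4 and 5 were called for PC-9 against NL20. The replicate block gave the same 0, 0 and 5 calls. Deviations of same-numbered libraries from their group means correlated between -0.0266 and 0.0339 over the circRNAs tested. Counting error at low counts also brings such values near 0, so they cannot show whether the numbers pair the samples. Over the table, calls were counted for gefitinib-resistant PC-9 against PC-9, FASN against pCMV6, PC-9 against NL20 and osimertinib-resistant against NCI-H1975 cells. In that order the block gave 111, 24, 1437 and 208 calls, beside 124, 29, 1539 and 231 without it. The median log2 change of the 5 in osimertinib-resistant cells lay between 3.09 and 3.22 over settings and between 2.93 and 3.32 with a library left out. Calls over the table moved by more than 1.5 times without the filter on low counts, to 16, 8, 679 and 53 in the same order. In that fit 124082 circRNAs were tested, and the cause of the move was not tested. For gefitinib-resistant PC-9 they were 211 with DESeq2 and 233 in a fit of the 2 groups alone. With a library left out they lay between 48 and 72 for gefitinib-resistant PC-9, between 14 and 20 for FASN, between 1045 and 1173 for PC-9 against NL20 and between 115 and 176 for osimertinib-resistant cells. These were moves of more than 1.5 times for each of the 6 libraries in gefitinib resistance, for each except pCMV6 replicate 2 in FASN against pCMV6, and for each NCI-H1975 library in osimertinib resistance. With a library left out the filter, set anew, kept between 11318 and 12236 circRNAs in place of 9175. The moves thus mix the loss of a library with a looser filter and an adjustment over more circRNAs. Estimates that were not called changed sign for hsa_circ_18854 in FASN minus pCMV6 without scaling factors (-0.042) and without a library (between -0.24 and 0.78), for hsa_circ_4462 there without pCMV6 replicate 3 (0.44; between -0.71 and 0.44 with a library left out) and for hsa_circ_15688 in gefitinib-resistant PC-9 without its replicate 1 (-0.32; between -0.32 and 0.52); the cause was not tested. In a fit of the FASN and pCMV6 groups alone, 2 of the 5 did not pass the filter. CPM over the deposited column totals were lower, since the main values count only reads in the circRNAs tested. Low counts limit most groups: outside the osimertinib-resistant cells and NL20, hsa_circ_15688 had between 6 and 24 reads in a group.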
